A study of Homo sapiens with 10 samples.

Results

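The 4 HOX clusters were described through the acetylated islands that fall in them, in immortalized human astrocytes with an inducible IDH1-R132H. An island is a stretch of sequence in which an antibody library has more reads than the control library. Every island of 9 lists that overlapped 1 of 4 hg19 intervals by at least 1 bp was taken: HOXA chr7:27130000-27250000, HOXB chr17:46600000-46810000, HOXC chr12:54330000-54450000 and HOXD chr2:176950000-177060000. This gave 78 of the 778773 islands in the lists. HOXB held 73 of them, HOXA 3, HOXC 2 and HOXD 0. The clusters carry the 38 HOX genes considered here, from HOXA2 to HOXA13, HOXB1 to HOXB13, HOXC4 to HOXC13 and HOXD1 to HOXD13. Their levels are described by cluster and position, since islands were not assigned to single genes.

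HOX genes encode homeodomain transcription factors that set position along the body axis of the embryo. Within a cluster the genes lie in the order in which they are used from head to tail, and neighbouring genes tend to be switched on or kept silent together. Polycomb complexes keep silent clusters under H3K27 methylation, on the same residue that carries H3K27ac at active promoters and enhancers. H3K9ac also marks active promoters and enhancers, and H4K16ac is spread more broadly over open chromatin. In the embryo most HOX genes are used in the hindbrain and spinal cord and not in the forebrain.

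The cells are a fetal astrocyte line immortalised with SV40. CUT&RUN was run on 200000 cells per reaction: an antibody tethers a nuclease to the chromatin mark it binds, and the DNA that is cut free is sequenced. H3K9ac, H3K27ac and H4K16ac were each profiled without doxycycline (noDox, labelled as wild type for IDH1) and after 2 days (2d-Dox) and 7 days (7d-Dox) of doxycycline at 1 µg/ml (labelled IDH1-R132H, the cancer-associated enzyme that makes 2-hydroxyglutarate). An HRP-linked secondary antibody on noDox cells gave the single control library, so there are 9 antibody libraries and 1 control, with 1 library per mark and time. No value below has a replicate, so no test between times was possible. Intervals are exact Clopper-Pearson intervals at 95% for a ratio of 2 read counts, and they cover counting error only. Doxycycline itself and time in culture cannot be told apart from IDH1-R132H.

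Counts of antibody reads were divided by a relative library size, in which the HRP library is 1, and are called scaled reads. That size lay between 1.49 (H3K27ac at 7d-Dox) and 7.88 (H4K16ac at 7d-Dox). Over noDox, 2d-Dox and 7d-Dox it was lower each time for H3K27ac (3.98, 3.15 and 1.49) and higher each time for H3K9ac (3.05, 4.17 and 4.88) and H4K16ac (2.53, 3.08 and 7.88). The smallest island in a list held 11 to 33 antibody reads. A stretch with no island is one that did not pass the caller, and reads outside islands are not in the lists.

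Promoter sequences are shown for a pair of paralogues, HOXB1 from the cluster with nearly all islands and HOXD1 from the cluster with none. Each is the 250 bases before a RefSeq transcription start on GRCh38.p14, read 5′ to 3′ on the gene's strand, with each CpG in capitals. HOXB1 lies at chr17:48531012-48531261 on the minus strand and HOXD1 at chr2:176188418-176188667 on the plus strand. Because the islands are on hg19, no promoter was placed in an island.
HOXB1: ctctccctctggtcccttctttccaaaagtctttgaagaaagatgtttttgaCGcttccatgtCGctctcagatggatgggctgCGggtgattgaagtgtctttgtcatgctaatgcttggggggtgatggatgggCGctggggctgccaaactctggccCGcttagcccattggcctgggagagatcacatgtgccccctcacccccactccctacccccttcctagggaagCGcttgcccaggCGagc
HOXD1: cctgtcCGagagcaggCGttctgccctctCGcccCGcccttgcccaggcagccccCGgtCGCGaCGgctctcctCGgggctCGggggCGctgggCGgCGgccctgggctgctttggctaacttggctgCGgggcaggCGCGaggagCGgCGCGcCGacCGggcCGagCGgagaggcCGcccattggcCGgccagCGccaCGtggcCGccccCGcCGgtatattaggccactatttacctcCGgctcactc
HOXB1 is the only HOXB gene with an entry in the table used, which covers 20 of the 38 genes with 27 promoters. The HOXB1 promoter had 7 CpG and the HOXD1 promoter 31, beside a median of 11 over all 35116 promoters in the table. The 8 HOXD promoters had a median of 22, the 16 HOXA promoters 19 and the 2 HOXC promoters, which are the same sequence listed for HOXC4 and HOXC5, 14. The letters TGATNNAT, of the kind bound by HOX proteins together with PBX, were looked for on both strands. They were found in 3 of the 27 promoters (HOXB1, HOXA2 and HOXD11), or 11.1%, and in 6.47% of all promoters.

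Acetylation was not shared evenly among the clusters: HOXB carried islands of every mark, and HOXA, HOXC and HOXD were almost bare. HOXB had islands in 8 of the 9 lists, with 11038 antibody reads in all. HOXA had 3 islands in 3 lists with 113 reads, HOXC 2 islands in 1 list with 30 reads, and HOXD no island in any list. The map of islands over the 4 intervals shows this contrast at every time.

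**Figure D1:**
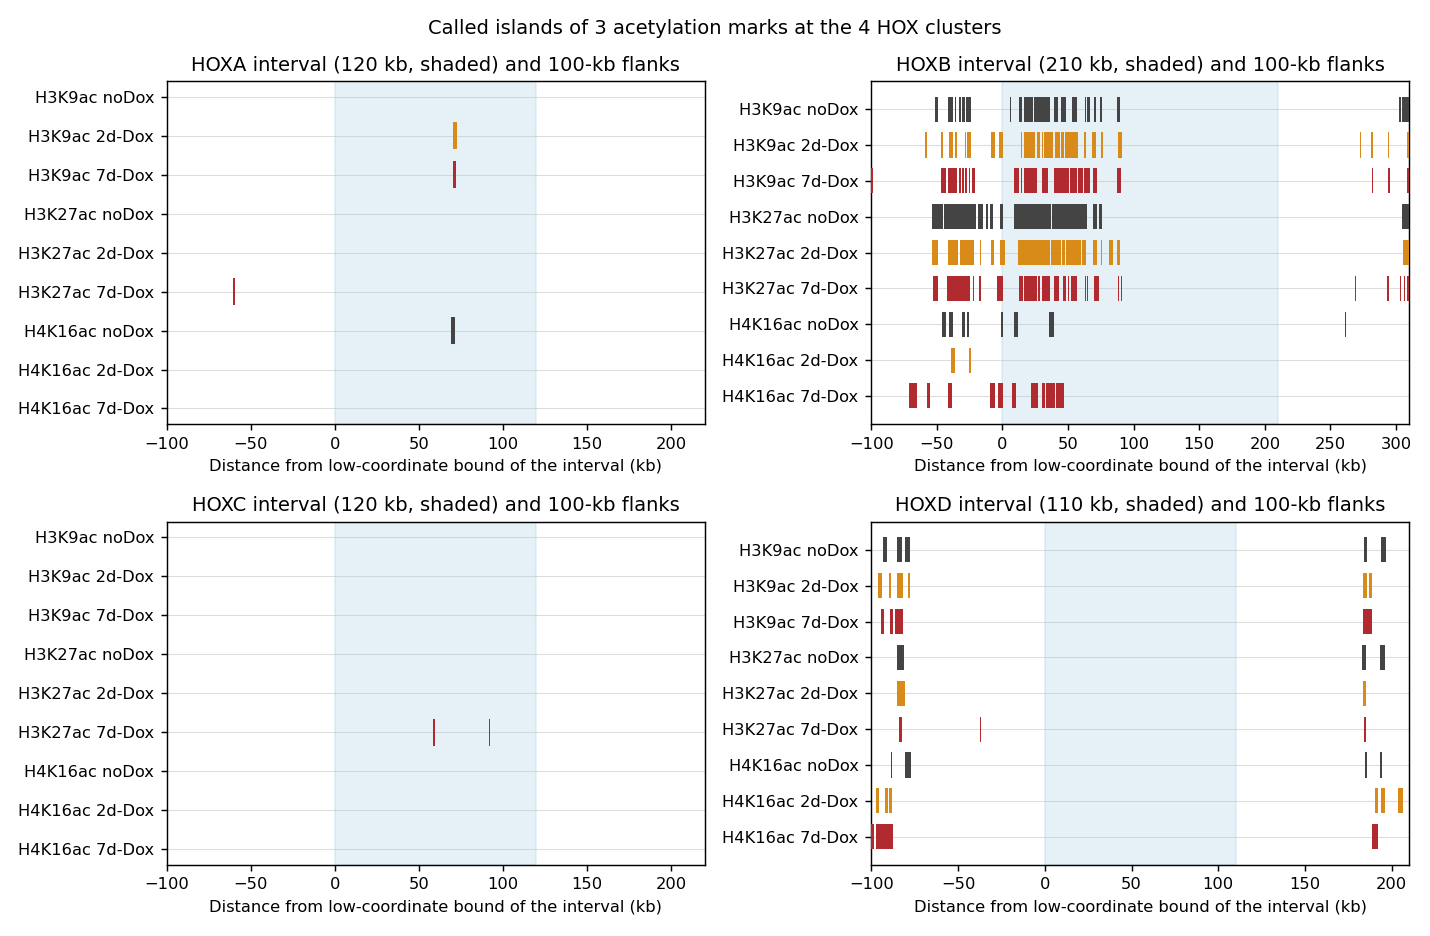
Each bar is a called island of 1 list (rows: 3 marks at noDox in grey, 2d-Dox in orange and 7d-Dox in red), and the x axis gives kb from the low-coordinate bound of the interval, which is shaded, with 100 kb on each side. HOXB holds 73 islands, all ending within 91.4 kb of its low bound, whereas HOXA holds 3, HOXC 2 and HOXD 0.

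H3K27ac covered 28.4% of the HOXB interval at noDox, 28.1% at 2d-Dox and 19.6% at 7d-Dox. Over chromosomes 1 to 22 and X it covered 10.1%, 8.45% and 7.30%. H3K9ac covered 19.8%, 21.3% and 23.8% of HOXB, and 10.3%, 10.8% and 12.3% of the chromosomes. For both marks the called share of HOXB was therefore above that of the chromosomes at each time. For H4K16ac the share was below that of the chromosomes, with 3.24%, 0% and 11.5% of HOXB against 9.09%, 11% and 19.3% of the chromosomes. Windows, bins and chromosome shares use full chromosome lengths, including assembly gaps, where no island can be called. Among 14447 windows of 210 kb, HOXB had more H3K27ac sequence than 88.5%, 91.9% and 88.5% of them at the 3 times. For H3K9ac it had more than 77.6%, 78.7% and 78.0%. For H4K16ac it had more than 48.4% at noDox and 53.3% at 7d-Dox. HOXB therefore stood high for the H3 marks, though many windows had as much, and near the middle of all windows for H4K16ac at noDox and 7d-Dox. Of these windows 35.7% had no H4K16ac at noDox and 38.4% none at 7d-Dox, so among windows with some H4K16ac HOXB stood low.

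**Figure D2:**
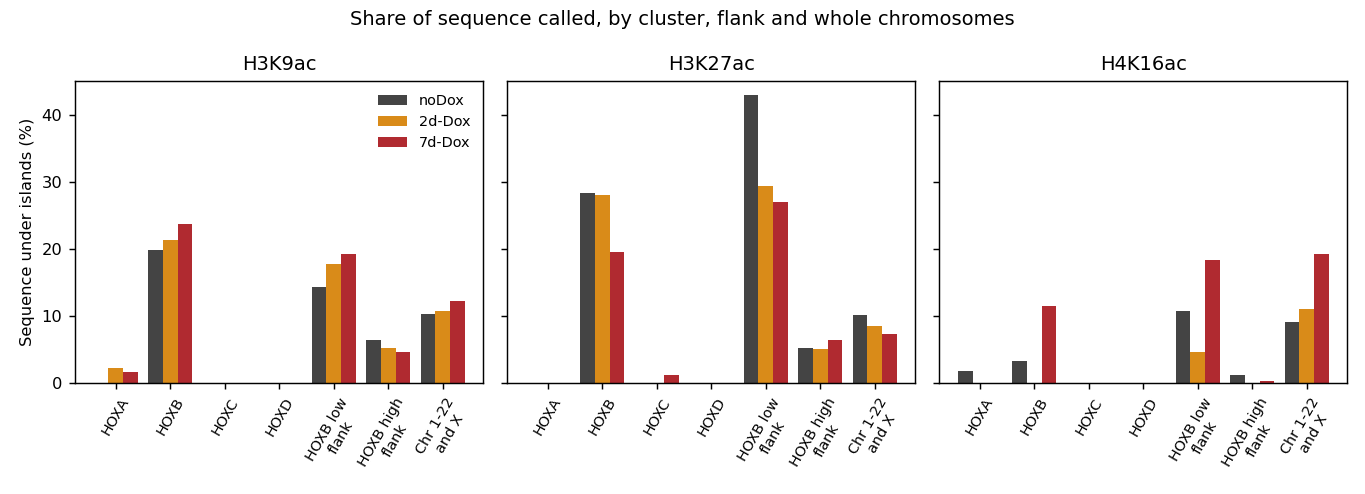
Bars give the percent of sequence under islands of each mark in the 4 HOX intervals, in the 100 kb on either side of HOXB, and over chromosomes 1 to 22 and X, at noDox (grey), 2d-Dox (orange) and 7d-Dox (red), with 1 library per bar. HOXB is at 19.6% to 28.4% for H3K9ac and H3K27ac, while no other HOX interval passes 2.17%.

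The flanks of HOXB differed from each other. In the 100 kb below the interval, beyond its HOXB1 end, H3K27ac covered 43.0%, 29.4% and 27% at noDox, 2d-Dox and 7d-Dox. In the 100 kb above it the share was 5.2%, 5.0% and 6.4%. H3K9ac likewise covered 14.4%, 17.8% and 19.2% of the low flank and 6.4%, 5.2% and 4.6% of the high flank. H4K16ac, absent from HOXB at 2d-Dox, covered 10.8%, 4.6% and 18.4% of the low flank. The HOXB islands thus stood beside further called sequence on the low side, and the nearest island above the interval was at least 51.0 kb away in every list.

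Empty windows are common, and the bare clusters are read against them. The empty windows include those in assembly gaps, which were not set apart. No mark was called at any time in 26.5% of 120-kb windows, the length of HOXA and HOXC, and in 27.6% of 110-kb windows, the length of HOXD. In single lists 32.8% to 45.0% of 120-kb windows had no called sequence. HOXD was empty in all 9 lists, yet its flanks were not: over the lists the nearest island lay 36.6 to 87.8 kb below it and 72.8 to 80.4 kb above it. HOXA lay in a longer bare stretch. In 5 of the 6 lists with no HOXA island, the stretch without islands that holds HOXA ran from 1150 to 1371 kb, and in the H3K27ac list at 7d-Dox it was 356 kb. HOXC sat in stretches of 380 to 490 kb in the 8 lists with no HOXC island.

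The 3 HOXA islands fell on a single site in the middle of the cluster. H3K9ac had an island at chr7:27200401-27203000 at 2d-Dox, with 46 antibody and 5 HRP reads. At 7d-Dox it had 1 at chr7:27200401-27202400, with 38 antibody and 5 HRP reads. H4K16ac was called there at noDox only, at chr7:27199401-27201600, with 29 antibody and 2 HRP reads. These counts are not scaled for library size. With scaling, the H3K9ac islands were 2.20-fold over HRP at 2d-Dox and 1.56-fold at 7d-Dox, above 28.1% and 12.1% of their lists. The H4K16ac island was 5.73-fold over HRP, above 65.7% of its list. No mark was called at this site at every time. H3K9ac had 11 scaled reads at 2d-Dox and 7.78 at 7d-Dox, a log2 ratio of -0.50 whose interval ran from -1.16 to 0.15. At the noDox depth the 2d-Dox island would give 33.6 reads, above the 14 reads of the smallest island of that list. Of 2d-Dox islands with the same expected count, 45.9% had no overlap in the noDox list. The H4K16ac island would give 35.3 reads at the 2d-Dox depth and 90.2 at the 7d-Dox depth, where the smallest islands held 14 and 33. Of noDox H4K16ac islands with the same expected count, 49.6% had no overlap at 2d-Dox and 29.1% none at 7d-Dox.

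HOXC had islands only in the H3K27ac list at 7d-Dox. They lay at chr12:54388601-54389400 and chr12:54422001-54422600, with 15 antibody reads each and 3 and 0 HRP reads. Both are short, at 0.8 and 0.6 kb, beside a median of 2000 bp in that list, which has the smallest library. At the noDox depth each would give 40 reads and at the 2d-Dox depth 31.7, above the smallest island in those lists (23 and 14 reads). Of islands at 7d-Dox with the same expected count, 72.8% had no overlap in the noDox list and 76.2% none in the 2d-Dox list, so islands this weak often had no match in the other lists.

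Inside HOXB the islands were confined to the side of HOXB1 in the lists analysed here. Positions are given as kb from the low-coordinate bound of the interval. In the gene order of RefSeq on GRCh38.p14, HOXB1 lies nearest this bound, followed by HOXB2 to HOXB9 in number order, and HOXB13, which is used at the tail end of the axis, lies farthest from it. All HOXB islands ended by 91.4 kb, and the 118.6 kb from there to the high bound, chr17:46691401-46810000, had no island of any mark at any time. Of the 21 bins of 10 kb in HOXB, 9, 10 and 10 had H3K9ac at noDox, 2d-Dox and 7d-Dox, and 8, 9 and 10 had H3K27ac. Over all bins of the genome the called share was 27.5%, 30.2% and 29.8% for H3K9ac and 22%, 21.7% and 25.4% for H3K27ac. H4K16ac had 3, 0 and 4 bins, where the genome had 29.5%, 28% and 33.4%.

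The reads peaked between 10 and 40 kb. This segment held 64.8%, 65.8% and 66.4% of the H3K27ac reads inside HOXB at noDox, 2d-Dox and 7d-Dox, and 59.2%, 50.6% and 50.2% of the H3K9ac reads. The bin at 20 to 30 kb had 168, 175 and 237 scaled reads of H3K27ac at the 3 times. An island's reads were shared evenly along its length, so bins cannot place a peak inside a long island. At noDox the H3K27ac bin at 10 to 20 kb, in the same island, thus also had 168. The part of island splitting at 7d-Dox in the 237 was not tested. It had 79.2, 70.1 and 62.0 scaled reads of H3K9ac. Per list, the highest HOXB bin stood above 99.5%, 99.5% and 99.8% of all bins for H3K27ac, and above 99.8%, 99.7% and 99.4% for H3K9ac. For H4K16ac the highest was the bin at 30 to 40 kb, with 17.0 scaled reads at noDox and 34.3 at 7d-Dox, above 86.8% and 91.9% of bins. By reads, the crest of HOXB thus stood near the top for H3K27ac and H3K9ac and was moderate for H4K16ac. By fold over HRP the H3K9ac island from 16.4 or 16.6 kb stood lower. Its folds of 2.35, 2.68 and 2.61 were above 31.4%, 38.9% and 44.5% of its lists. The next H3K9ac islands along the crest had 14.2, 50.8 and 10.6, above 84.9%, 96.9% and 85.0%. The 50.8 at 2d-Dox rests on no HRP read. The H3K27ac islands with most reads had 7.86, 8.90 and 9.56, above 74.7%, 71.8% and 59.7%.

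**Figure D3:**
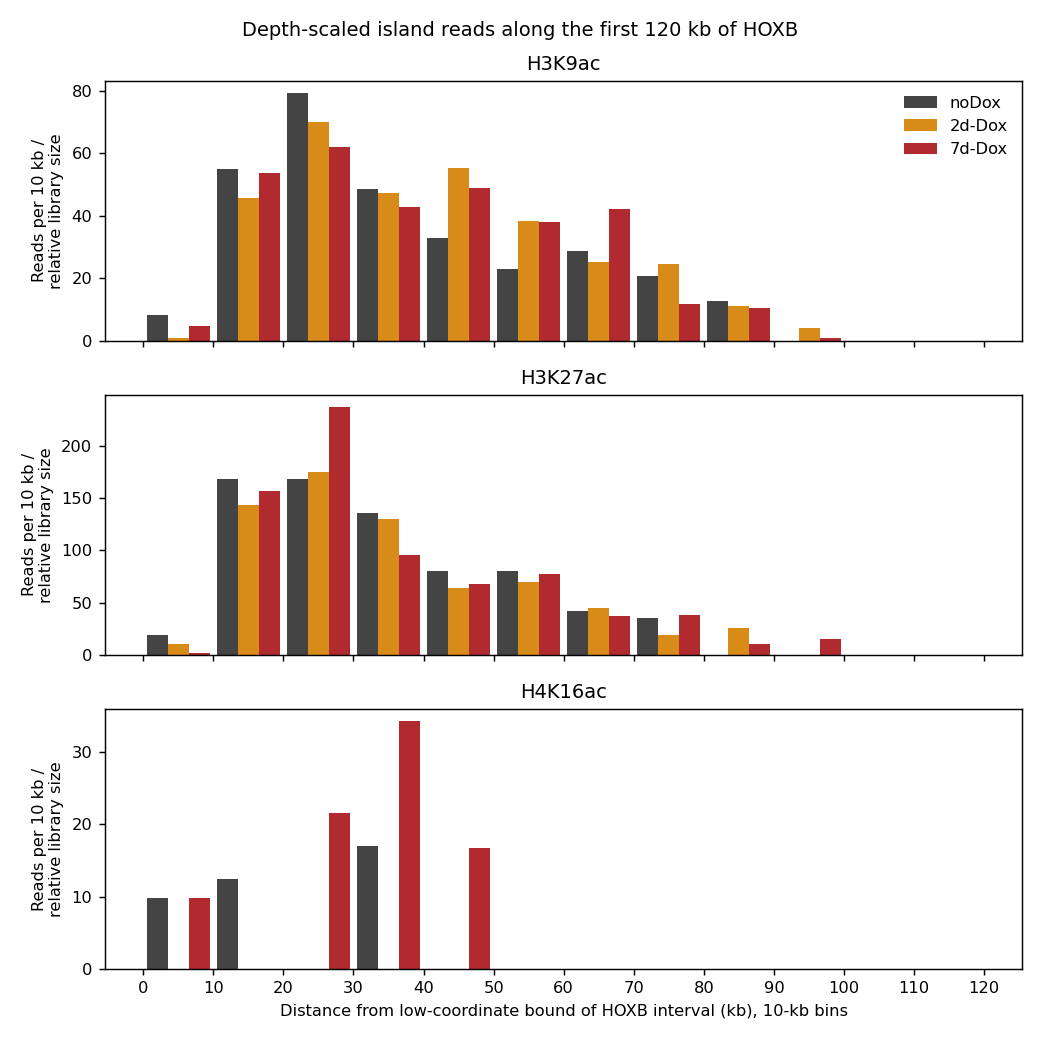
Bars give scaled reads (antibody reads in islands over relative library size, shared among bins by overlapped length) in 10-kb bins of the first 120 kb of HOXB, for noDox (grey), 2d-Dox (orange) and 7d-Dox (red), with 1 library per bar and a different y range for each mark. H3K9ac and H3K27ac crest between 10 and 40 kb at all 3 times and no bar lies past 100 kb.

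The H3K27ac islands of HOXB with most antibody reads at noDox were long. The first ran from 9.0 to 37.0 kb (chr17:46609001-46637000) with 1877 antibody and 60 HRP reads, and was number 525 by length and 430 by reads among 52044 islands of its list. The next ran from 37.8 to 64.4 kb (chr17:46637801-46664400) with 853 antibody and 45 HRP reads. At 2d-Dox the main island ran from 11.8 to 36.2 kb with 1345 reads. At 7d-Dox the stretch of the first noDox island was split. It held islands at 12.6 to 15.6, 16.4 to 26.4, 27.4 to 28.6 and 29.8 to 36.4 kb, with 55, 499, 30 and 139 reads. The widest of these was 10.0 kb, where the main island was 28.0 kb at noDox and 24.4 kb at 2d-Dox. Scaled reads per kb were 16.8 at noDox and 17.5 at 2d-Dox. In the 7d-Dox islands they were 12.3, 33.5, 16.8 and 14.1, in the same order. The library with the split islands is also the smallest, and the part of library size in the splitting and width was not tested.

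A core of HOXB was called for H3 acetylation at every time. H3K27ac was called at all 3 times over 35.6 kb in 11 stretches, and H3K9ac over 27.6 kb in 13 stretches. Sequence called in all 6 lists of these marks came to 23.4 kb in 12 stretches, the longest at chr17:46616601-46623600 (16.6 to 23.6 kb, 7.0 kb). Of the H3K27ac sequence at noDox, 85.9% was still called at 2d-Dox and 61.1% at 7d-Dox. Of the H3K9ac sequence, 77.4% and 78.8% was. H3K9ac lay largely within H3K27ac: 88.0%, 87.9% and 66.4% of its HOXB sequence at the 3 times, against 54.4%, 45.5% and 35.2% over the chromosomes. The overlap of the H3 marks in HOXB was above that of the chromosomes at each time.

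The control was high over some of the crest, near 16.4 to 26.4 kb, and not over all of it. It was also high at its low edge, at 3.68 HRP reads per kb over the 7d-Dox H3K9ac island at 9.0 to 12.8 kb. HRP reads over the H3K9ac island at 16.4 to 23.6 kb (noDox) numbered 33, or 4.58 per kb, against 1.96 per kb over all islands of that list. Over the 7d-Dox H3K27ac island at 16.4 to 26.4 kb they numbered 35, or 3.50 per kb, against 2.10. Antibody reads there were 236 for H3K9ac and 499 for H3K27ac. Farther along the crest the control was low, at 0.51 HRP reads per kb over the noDox H3K9ac island at 24.4 to 36.2 kb and 0.91 over the 7d-Dox H3K27ac island at 29.8 to 36.4 kb. Over the long H3K27ac islands it was near the list values, at 2.14 per kb at noDox and 1.97 at 2d-Dox, against 2.12 and 2.13. The part of the control signal in the crest was not tested.

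During induction the scaled reads of H3K9ac and H3K27ac over HOXB as a whole stayed close to noDox. H3K9ac had 12, 13 and 10 islands with 943, 1401 and 1541 antibody reads at noDox, 2d-Dox and 7d-Dox. These are 309, 336 and 315 scaled reads, and the log2 ratio over noDox was 0.12 (-0.0016 to 0.24) at 2d-Dox and 0.029 (-0.089 to 0.15) at 7d-Dox. H3K27ac had 5, 10 and 14 islands with 2969, 2188 and 1143 antibody reads. These are 746, 695 and 766 scaled reads, with log2 ratios of -0.10 (-0.18 to -0.021) and 0.039 (-0.060 to 0.14). Over HRP, HOXB was 4.48, 3.14 and 2.98-fold up for H3K9ac and 6.02, 5.99 and 7.98-fold for H3K27ac. With scaled HRP reads subtracted, the H3K9ac log2 ratios over noDox turned to -0.071 and -0.20. The ratios over noDox in 210-kb windows had medians of 0.0081 and 0.064 for H3K9ac and -0.091 and -0.021 for H3K27ac. HOXB lay above 62.4% and 46.0% of windows for H3K9ac and above 47.6% and 55.9% for H3K27ac, near the middle of the genome.

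The called length and the reads did not move together. H3K9ac islands spanned 41.6, 47.8 and 50 kb, and H3K27ac islands 61.6, 61.0 and 45.0 kb. H3K27ac per kb of island was therefore 12.1, 11.4 and 17.0 scaled reads, and the 7d-Dox log2 ratio per kb was 0.49 where that of the sum was 0.039. H3K9ac per kb was 7.43, 7.02 and 6.31, with log2 ratios of -0.082 and -0.24. H3K27ac lay in more HOXB islands at the later times. Over whole H3K27ac lists the median island was 4200, 3200 and 2000 bp at the 3 times. Scaled reads per kb over whole lists were 10.6, 11.7 and 14.3 for H3K27ac, and 5.99, 5.78 and 5.23 for H3K9ac. At 7d-Dox the whole lists thus moved in the same direction as HOXB for both marks.

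H4K16ac behaved unlike the H3 marks in HOXB. It had 3 islands at noDox, none at 2d-Dox and 6 at 7d-Dox, with 122, 0 and 731 antibody reads, or 48.2, 0 and 92.8 scaled reads. The called length was 7.8, 0 and 27.6 kb. At 7d-Dox the log2 ratio over noDox was 0.95 (0.67 to 1.23), where the median of 210-kb windows was 0.51 and HOXB lay above 78.0% of them. Per kb of island the ratio was -0.88, so more sequence was called at a lower density. Scaled reads per kb were 6.18 at noDox and 3.36 at 7d-Dox in HOXB, and 6.02 and 4.04 over whole H4K16ac lists. At noDox 85.3% of the H4K16ac sequence in HOXB lay within H3K27ac, and at 7d-Dox 59.5%, against 32.4% and 19.1% over the chromosomes.

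The absence of H4K16ac at 2d-Dox was measured against depth. At that library's size the 3 noDox islands would give 39.0 to 57.3 reads, and the smallest island of the 2d-Dox list had 14. Of all noDox islands with an expected count in that range, 39.6% had no overlap at 2d-Dox. Of 8662 windows of 210 kb with H4K16ac at noDox and 7d-Dox, 254 (2.93%) had none at 2d-Dox. Among the 1284 such windows with no more called at noDox than HOXB (6.8 kb), it was 201, or 15.7%. No island was called at 2d-Dox in the other 3 clusters either.

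Regions were formed by merging the islands of a mark's 3 lists where they touch, and compared where both libraries have an island and either has at least 50 reads. All regions that could be compared lay in HOXB: 6 of H3K9ac at either time, 4 of H3K27ac at 2d-Dox and 3 at 7d-Dox, and 3 of H4K16ac at 7d-Dox. No H4K16ac region could be compared at 2d-Dox, where 10.7% of all regions were lower and 20% higher. A shift of at least 2-fold was seen in 2 of these comparisons. H3K9ac at 2d-Dox had 1 of 6 regions lower and 0 higher, where 9.63% of all 43456 regions were lower and 5.73% higher. H4K16ac at 7d-Dox had 1 of 3 lower and 0 higher, where 2.38% of 47412 were lower and 22.9% higher. The others had none: the background was 6.28% lower and 6.42% higher for H3K9ac at 7d-Dox, 3.55% and 0.48% for H3K27ac at 2d-Dox, and 9.07% and 1.53% for H3K27ac at 7d-Dox. Each count above 0 is a single region with at most 72 reads in either library, so no shift of the cluster can be read from it. Both were lost with a minimum of 100 reads, and the H4K16ac one also with scaled HRP reads subtracted.

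The region with most H3K9ac at noDox, 16.4 to 38.2 kb (chr17:46616401-46638200), covers the crest. It had 496, 648 and 654 antibody reads at noDox, 2d-Dox and 7d-Dox, and 163, 155 and 134 scaled reads. The log2 ratios were -0.067 (-0.24 to 0.10) and -0.28 (-0.45 to -0.11). Its called length was 19, 18.6 and 15 kb, and per kb the ratios were -0.036 and 0.060. The next region, 39.4 to 57.4 kb, was higher at both times, with 59.7 scaled reads at noDox, 93.5 at 2d-Dox and 79.4 at 7d-Dox, with log2 ratios of 0.65 (0.39 to 0.91) and 0.41 (0.15 to 0.67). The called length of this second region was 10.8, 15.6 and 16 kb, and per kb its ratios were 0.12 and -0.15. The 40 to 70 kb segment held 27.3% of the H3K9ac reads inside HOXB at noDox, 36.8% at 2d-Dox and 41.0% at 7d-Dox. Its called length was 13.4, 18.6 and 25 kb, so the larger share came with more called sequence.

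The smaller H3K9ac regions did not share a pattern over the 2 times. The region at 9.0 to 15.2 kb (chr17:46609001-46615200) had 50, 33 and 133 antibody reads, or 16.4, 7.91 and 27.2 scaled reads. Its log2 ratios were -1.05 (-1.73 to -0.39) and 0.73 (0.25 to 1.23), the lowest of the 6 regions at 2d-Dox and the highest at 7d-Dox. Called length moved with them, at 2.4, 1.2 and 5.0 kb, and per kb the ratios were -0.052 and -0.33. Of the 133 reads at 7d-Dox, 85 lay in an island at 9.0 to 12.8 kb that touched the noDox island without overlapping it. That island was 1.24-fold over HRP, with an FDR of 0.027. The other 7d-Dox island of the region, at 14.0 to 15.2 kb, had 48 reads, or 9.83 scaled reads, fewer than the region had at noDox. The 7d-Dox rise therefore rests on the weak island. The region at 62.4 to 67.0 kb went from 27.2 to 13.9 and 29.1 scaled reads, with ratios of -0.97 (-1.48 to -0.47) and 0.095 (-0.31 to 0.50). Its called length was 3.0, 1.6 and 4.6 kb, and per kb the ratios were -0.063 and -0.52. Its noDox island at 64.8 to 66.4 kb had no called sequence at 2d-Dox. The region at 68.6 to 72.0 kb went from 13.4 to 24.4 and 19, with ratios of 0.86 (0.33 to 1.42) and 0.50 (-0.043 to 1.07). It had 1.8, 3.0 and 3.2 kb called, and per kb the ratios were 0.13 and -0.33. The region at 87.6 to 90.8 kb, nearest the bare side, had 12.8, 15.1 and 11.3 scaled reads, and both its intervals include 0. The median of the 6 ratios was 0.086 at 2d-Dox and 0.25 at 7d-Dox, beside -0.053 and 0.0036 over all regions.

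The main H3K27ac region of HOXB, 9.0 to 64.4 kb (chr17:46609001-46664400), had a similar sum at the 3 times. It had 2730, 1955 and 980 antibody reads, or 686, 621 and 657 scaled reads. The log2 ratios were -0.14 (-0.23 to -0.059) and -0.062 (-0.17 to 0.044). Its called length went from 54.6 to 48.8 and 33.8 kb, so that per kb the ratios were 0.019 and 0.63. At the low bound, the region at chr17:46596201-46601600 had 18.1, 23.2 and 30.2 scaled reads, with ratios of 0.36 (-0.13 to 0.85) and 0.74 (0.17 to 1.3). Its called length was 2.2, 3.6 and 4.0 kb, and per kb the ratios were -0.35 and -0.12. The 7d-Dox island ran from -3.8 to 0.2 kb, so most of it lay outside the interval. The region at 69.0 to 73.4 kb had 28.4, 18.1 and 42.9, with ratios of -0.65 (-1.13 to -0.18) and 0.60 (0.13 to 1.05). It had 2.6, 2.8 and 3.8 kb called, and per kb the ratios were -0.76 and 0.049. The region at 73.6 to 75.8 kb had 13.6 scaled reads at noDox and 7.31 at 2d-Dox, a ratio of -0.89 (-1.66 to -0.16), and was not called at 7d-Dox. Its called length went from 2.2 to 0.6 kb, and per kb its 2d-Dox ratio was 0.98. The H3K27ac medians were -0.40 over 4 regions at 2d-Dox and 0.60 over 3 at 7d-Dox, beside -0.13 and -0.17 over all regions. These medians are over different sets, since the region at 73.6 to 75.8 kb is in the 2d-Dox one only. The 7d-Dox median is the value of the region at 69.0 to 73.4 kb, with 64 reads. The main region, with 980 reads, was at -0.062, so no rise of the cluster can be read from this median.

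**Figure D4:**
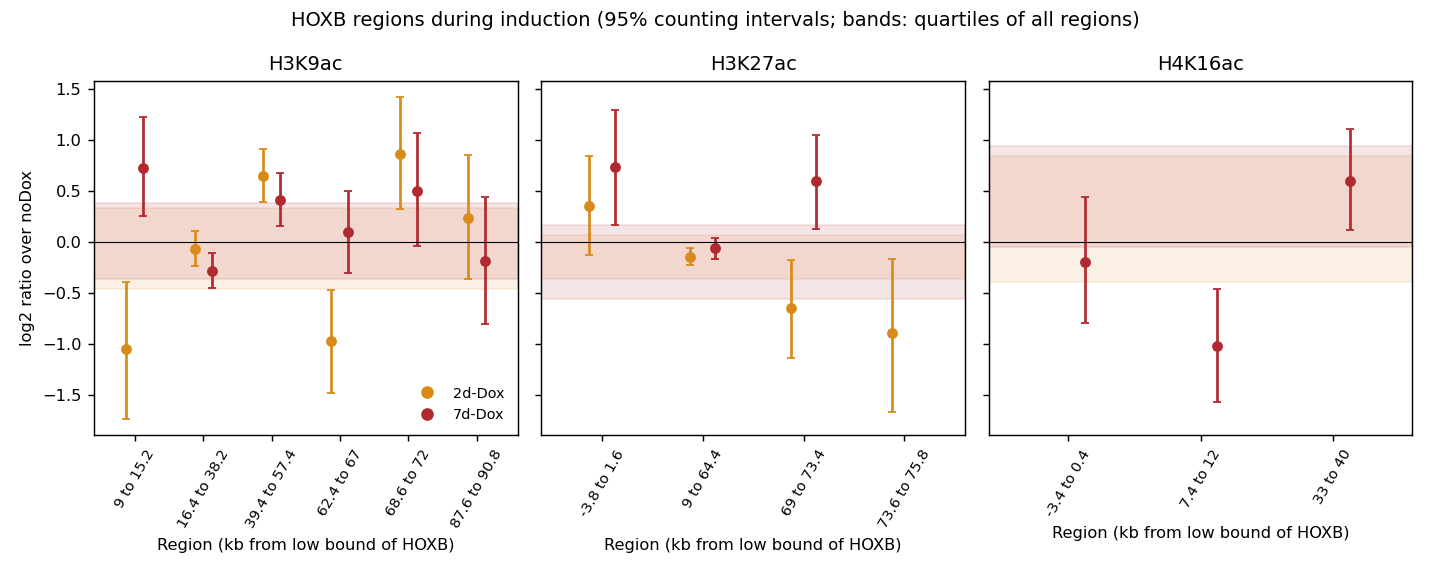
Points give the log2 ratio of scaled reads over noDox for each comparable HOXB region (x axis, kb from the low bound) at 2d-Dox (orange) and 7d-Dox (red), with 95% counting intervals, and bands span the quartiles of all regions of the mark at that time. The long regions, 16.4 to 38.2 kb for H3K9ac and 9.0 to 64.4 kb for H3K27ac, lie between -0.28 and -0.062, the H3K9ac region at 39.4 to 57.4 kb lies at 0.65 and 0.41, and the shorter ones spread from -1.05 to 0.86. The ratios are of summed reads and are not per kb of called sequence.

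H4K16ac regions could be compared at 7d-Dox only. The region with most noDox reads, 7.4 to 12 kb (chr17:46607401-46612000), had 47 antibody reads at noDox and 72 at 7d-Dox, or 18.6 and 9.14 scaled reads. Its log2 ratio was -1.02 (-1.57 to -0.46), lower than in all but 2.23% of regions, and per kb it was -0.82. Both of its islands were weak, at 1.55-fold over HRP at noDox and 1.52-fold at 7d-Dox, above 5.84% and 19.9% of their lists. They overlap only from 9.0 to 10.0 kb, so they cover largely different sequence. The sum of the region at 33 to 40 kb went the other way, from 17.0 to 25.8 scaled reads (0.60, 0.12 to 1.11). Its called length went from 3.4 to 7.0 kb, and per kb its ratio was -0.44. At the low bound, chr17:46596601-46600400 had 12.6 and 11 scaled reads (-0.19, -0.79 to 0.44). Its called length went from 1.4 to 3.6 kb, and per kb its ratio was -1.56. The higher HOXB total at 7d-Dox came with islands called only at 7d-Dox, at 21.6 to 27.4, 29.8 to 32.2 and 40.8 to 47.0 kb, with 164, 73 and 132 antibody reads. At the noDox depth they would give 23.5 to 52.7 reads, and 50.9% of 7d-Dox islands with expected counts in that range had no overlap at noDox, so such islands were common. The median of the 3 ratios was -0.19, beside 0.43 over all regions.

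Bins of 10 kb were compared where both libraries have reads and either has at least 50. In HOXB this left 7 bins of H3K9ac at 2d-Dox and 8 at 7d-Dox. It also left 8 of H3K27ac at either time, and 2 of H4K16ac at 7d-Dox only. Among the compared bins, a shift of at least 2-fold was seen in 2 places of HOXB. H3K27ac at 7d-Dox was lower in the bin at 0 to 10 kb, from 18.5 to 1.51 scaled reads, where 14.5% of bins genome-wide were lower and 3.45% higher. At noDox that bin holds only the edge of the long island from 9.0 kb and 0.2 kb of an island at the bound, so the value turns on where islands end. H4K16ac at 7d-Dox was higher in the bin at 30 to 40 kb, from 17.0 to 34.3 scaled reads, where 4.36% of bins were lower and 27.1% higher. The called sequence in that bin went from 3.4 to 9.2 kb. No compared H3K9ac bin of HOXB passed 2-fold at either time. Genome-wide 11.5% of bins were lower and 11% higher at 2d-Dox, and 9.17% and 12.6% at 7d-Dox. The H3K9ac bin at 0 to 10 kb had too few reads to be compared, with 8.20 scaled reads at noDox and 0.88 at 2d-Dox. No compared H3K27ac bin passed 2-fold at 2d-Dox, where 8.15% of bins were lower and 2.24% higher.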

How the data were processed

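CUT&RUN islands of 9 antibody libraries were analysed. Per the submitters' processing notes, reads were handled with Bowtie2 2.3.5.1, cutadapt, deepTools, FastQC, Picard and SICER on hg19. Settings: not given in the sources used here. Per the file headers, the authors called each list from a single antibody library with HRP as control. The deposited counts are whole numbers of antibody and HRP reads per island with no scaling. In each list the authors' deposited log2 fold equals log2 of antibody over HRP reads minus a constant, the same for all islands within 3.55e-15, where an HRP count of 0 was entered as 0.25. The constant gave library size relative to HRP. The deposited score was not used. The deposited p-value and FDR are the authors', and only the FDR was used, as a filter. The files give no library totals.

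Regions, 10-kb bins (reads shared by overlapped length) and windows were built with numpy 2.4.6, pandas 2.3.3 and scipy 1.17.1, over chromosomes 1 to 22 and X with hg19 lengths from GenomeInfoDb 1.38.1. The code was tested on simulated data. Regions named are those with most noDox reads per cluster and mark, and, per mark and time, the 3 largest rises and falls among comparable regions (called in both libraries, 50 reads or more in either). The other comparable HOXB regions were added. The members and lists were chosen with earlier results of these data known. Alternatives were other scalings, HRP subtraction, an FDR of at most 0.001, 100 reads or no minimum, joining gaps of at most 2 kb, reads inside the interval, reads per kb, and bins of 5 and 20 kb. The annotation used is on GRCh38.p14, so no island was given to a gene, and planned lists of astrocyte and other cell type markers, HOX cofactors, Polycomb and trithorax genes were not run. The astrocyte label was therefore not checked. PCR reads lacking molecular identifiers cannot count as independent molecules, and the labels name no spike-in, so a shift in overall acetylation cannot be told apart from library size.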

Additional observations from a re-analysis of the deposited data

Results flagged for a closer look

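Several HOXB values lay on opposite sides of noDox at 2d-Dox and 7d-Dox. Each compares single libraries, both times share the noDox library, and the differences were not tested. Values are log2 ratios of scaled reads, 7d-Dox over 2d-Dox, with 95% counting intervals. For H3K9ac the region at 9.0 to 15.2 kb gave 1.78 (1.22 to 2.38), that at 62.4 to 67.0 kb gave 1.06 (0.61 to 1.53) and that at 87.6 to 90.8 kb gave -0.42 (-0.97 to 0.12). In the region at 9.0 to 15.2 kb, 85 of the 133 reads at 7d-Dox lay in an island only 1.24-fold over HRP. In the region at 62.4 to 67.0 kb the called length was 1.6 kb at 2d-Dox and 4.6 kb at 7d-Dox, with 8.69 and 6.32 scaled reads per kb. For H3K27ac the HOXB total gave 0.14 (0.036 to 0.24) and the region at 69.0 to 73.4 kb gave 1.24 (0.71 to 1.79). That H3K27ac region had 2.8 and 3.8 kb called, with 6.47 and 11.3 scaled reads per kb. H4K16ac had 92.8 scaled reads over HOXB at 7d-Dox and no island at 2d-Dox.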

How the results depend on the processing

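Of 89 alternative values, 66 kept close to the value reported and 23 moved. The cause was not tested, except that a higher minimum leaves fewer regions. Close meant inside the counting interval for totals, and equal or within 1.5 times for lengths and counts. Some could hardly move: H4K16ac counts at 2d-Dox stay at 0 without islands, and leaving out a list cannot shorten the sequence called in all lists. All 10 alternative ratios of called length stayed within 1.5 times the main ones, and that of H4K16ac at 7d-Dox went from 3.54 to 5 with an FDR of at most 0.001. The HOXB log2 ratio of H3K9ac became -0.071 at 2d-Dox and -0.20 at 7d-Dox with scaled HRP reads subtracted, and -0.082 and -0.24 per kb of island. That of H3K27ac at 2d-Dox became 0.0018 when scaled by the reads in all islands, and at 7d-Dox 0.49 per kb. That of H4K16ac at 7d-Dox became 0.43 with the island-read scaling, 1.46 with an FDR of at most 0.001 and -0.88 per kb. The single H3K9ac region 2-fold lower at 2d-Dox was lost with a minimum of 100 reads or gaps joined (0 in each). For H3K27ac at 2d-Dox, HRP subtraction gave 1 region. The single H4K16ac region at 7d-Dox was lost with HRP subtraction, the FDR limit and 100 reads (0 in each), and joining gaps gave 2. With 5-kb bins the number of 2-fold bins was 2 for H3K9ac at either time, 1 and 2 for H3K27ac at 2d-Dox and 7d-Dox, and 0 for H4K16ac at 7d-Dox. With 20-kb bins it was 0 for H3K27ac and 2 for H4K16ac at 7d-Dox. The 23.4 kb called in all 6 H3K9ac and H3K27ac lists became 23.6 to 26.8 kb when each list was left out in turn, an alternative chosen after seeing the data. No paired analysis was possible because each mark and time has 1 library. Depth limits what the lists can hold: the smallest island of a list held 11 to 33 reads, and many HOXB regions rest on fewer than 100.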

Other observations

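The overlap of H3K9ac with the other marks in HOXB had different values at the 3 times. At noDox 8.82% of the H4K16ac sequence in HOXB lay within H3K9ac, against 41.1% over the chromosomes, and at 7d-Dox 69.4%, against 43.6%. The noDox value rests on 3 islands with 6.8 kb inside the interval. Of the H3K27ac sequence in HOXB, 61.4%, 66.8% and 80.6% lay within H3K9ac at noDox, 2d-Dox and 7d-Dox, against 55.7%, 58.1% and 59.4% over the chromosomes. These are single libraries, and the differences were not tested.

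Inside the acetylated side of HOXB, short gaps had no island in any of the 9 lists, at 1.6 to 5.6, 6.8 to 7.4, 67.0 to 68.6, 73.4 to 73.6, 76.4 to 81.2 and 84.0 to 87.0 kb.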
